A study of Mus musculus with 10 samples.

Results

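Pgc, Ccdc3, Dmpk, Gramd1a, Kif12 and Cpn1 were followed across R-spondin gain and loss of function in Lgr5-GFP-positive cells of the mouse proximal jejunum. These 6 genes were picked by symbol from the 23969 symbols of the FPKM table because they were low under R-spondin loss of function and high under gain of function, and because they are not standard markers of intestinal cell types. The values that chose them are therefore described here without a test. All 6 were among the 11454 genes with at least 1 FPKM in at least 2 libraries, and each was above that level in all of its Rspo1 and control libraries.

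All mice were Lgr5-eGFP-IRES-CreER animals, in which GFP is expressed from the Lgr5 locus. Lgr5 encodes an R-spondin receptor of crypt base stem cells. Each had received an intravenous adenovirus. The 3 Rspo1 libraries came from mice given a virus for the secreted protein Rspo1 (gain of function). The 3 LGR5-ECD libraries came from mice given a virus for the extracellular domain of LGR5 (loss of function). The 2 control libraries were read as GFP-positive cells after Fc virus from the wording of the series, because their column names show no sort. Every value against the control rests on that reading. The sources used here do not give virus dose, time of harvest or age of the mice. The gate itself follows the Lgr5 locus, so the number and kind of cells inside it can change with the treatment.

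R-spondins bind LGR receptors and spare Frizzled Wnt receptors from removal by the ubiquitin ligases RNF43 and ZNRF3, which strengthens Wnt signalling in crypt base cells. A soluble LGR5 ectodomain binds R-spondins and keeps them from the cells. In the nucleus the Wnt signal acts through TCF and LEF factors, which bind DNA with a CTTTG core, and stem cell genes such as Lgr5, Ascl2 and Axin2 respond to it.

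The 6 genes belong to unrelated families. Pgc encodes pepsinogen C, the precursor of an aspartic protease best known from the stomach. Cpn1 encodes the catalytic subunit of carboxypeptidase N, a plasma enzyme made mainly by the liver that trims basic residues from kinins and anaphylatoxins. Ccdc3 encodes a secreted coiled-coil protein described in endothelium and fat. Dmpk encodes a serine/threonine kinase abundant in muscle, and in humans the gene holds the repeat that expands in myotonic dystrophy. Gramd1a encodes an endoplasmic reticulum protein that moves cholesterol away from the plasma membrane. Kif12 encodes a kinesin-family protein known from kidney and liver epithelium.

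Promoter sequences from RefSeq (build GRCm38.p6, 250 bases before to 50 after a gene start) were found for all 6 genes. The expression table was made on mm9, so these coordinates do not apply to it. A search of both strands for the TCF/LEF letters CTTTGAA or CTTTGAT or CTTTGTA or CTTTGTT found them in the windows of Pgc and Cpn1 and in none of the other 4. Over all 32851 promoter windows, 16.9% held at least 1 such match and 1.94% held at least 2. The windows of Pgc and Cpn1 are shown because they hold the matches, in capitals, and that of Ccdc3 because its values were closest to those of Pgc and it held no match.
Pgc, chr17:47726592-47726891, plus strand: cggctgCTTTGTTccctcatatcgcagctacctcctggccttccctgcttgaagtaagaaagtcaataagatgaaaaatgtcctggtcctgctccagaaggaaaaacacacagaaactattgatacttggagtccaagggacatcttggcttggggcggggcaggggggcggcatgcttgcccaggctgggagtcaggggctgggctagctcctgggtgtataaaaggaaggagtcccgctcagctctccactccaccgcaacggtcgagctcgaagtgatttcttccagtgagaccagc
Cpn1, chr19:43986471-43986770, minus strand: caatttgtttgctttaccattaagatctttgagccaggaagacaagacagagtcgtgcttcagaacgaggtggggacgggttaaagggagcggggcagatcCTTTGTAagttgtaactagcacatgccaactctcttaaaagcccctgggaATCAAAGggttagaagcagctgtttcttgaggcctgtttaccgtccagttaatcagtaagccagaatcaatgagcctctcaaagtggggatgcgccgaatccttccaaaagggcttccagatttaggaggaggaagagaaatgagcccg
Ccdc3, chr2:5137526-5137825, plus strand: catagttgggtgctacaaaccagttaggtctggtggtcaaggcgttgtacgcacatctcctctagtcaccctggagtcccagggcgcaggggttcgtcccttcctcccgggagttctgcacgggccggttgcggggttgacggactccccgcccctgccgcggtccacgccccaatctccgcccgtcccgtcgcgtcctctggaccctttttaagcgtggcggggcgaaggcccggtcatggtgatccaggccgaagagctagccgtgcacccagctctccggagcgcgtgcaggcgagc

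The Pgc match, CTTTGTT, began at position -244 from the start. In Cpn1, CTTTGTA began at position -149 and CTTTGAT, on the opposite strand, at position -99. The Cpn1 window also held CAGCTG, an E-box of the kind bound by ASCL2-type factors, which 16.3% of all windows held and which overlapped neither TCF/LEF match. The Dmpk window held TTTATNG, the core bound by CDX factors of the intestine (10.9% of all windows), and the GATA letters AGATAA were in 0 of the 6 windows, against 11.2% of all. Base composition also varied, with 66.3% G and C in the Ccdc3 window, 48% in that of Cpn1 and a median of 52.7% over all windows. Such matches describe the letters in these windows and are not evidence of binding.

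Levels are FPKM, fragments per kilobase of transcript scaled to the fragments mapped, so they can be set side by side between genes. Read depth is unknown. The FPKM sum of a library ranged from 189335 to 275937, and the third LGR5-ECD library stood apart with 11485 genes above 0, against 13417 to 14197 in the other 7. Differences are given on the log2(FPKM + 1) scale with the moderated standard error (SE) of a fit over all 8 libraries, and this scale understates the change of low genes.

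Pgc had the largest log2 difference between Rspo1 and LGR5-ECD cells among the 6. It stood at 29.9, 27.0 and 46.9 FPKM in the Rspo1 libraries, at 1.33, 0.104 and 0 FPKM in the LGR5-ECD libraries, and at 12.0 and 4.55 FPKM in the controls. No group overlapped another, and the controls lay between the treated groups. The log2 difference was 4.66 (SE 0.40) for Rspo1 minus LGR5-ECD, the largest of all genes with that filter, -2.63 (SE 0.45) for LGR5-ECD minus control and 2.03 (SE 0.45) for Rspo1 minus control.

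Ccdc3 was the most abundant of the 6 in the Rspo1 cells. Its level was 42.6, 64.0 and 59.7 FPKM in the Rspo1 libraries, 3.36, 2.32 and 0.346 FPKM in the LGR5-ECD libraries and 17.0 and 10.1 FPKM in the controls. Again the 3 groups did not overlap, and Ccdc3 was the only member listed above 0 in every library. The differences were 4.37 (SE 0.40), -2.39 (SE 0.44) and 1.98 (SE 0.44) in the same order of comparisons, close to those of Pgc.

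Gramd1a and Cpn1 were graded as well, with a smaller step above the control. Gramd1a was at 10.4, 14.4 and 15.4 FPKM in the Rspo1 libraries, 1.11, 0.732 and 0 FPKM in the LGR5-ECD libraries and 7.05 and 7.47 FPKM in the controls. Cpn1 was at 7.40, 9.26 and 14.1 FPKM in the Rspo1 libraries, 0.974, 0.726 and 0 FPKM in the LGR5-ECD libraries and 6.51 and 5.63 FPKM in the controls. Both genes kept the order of the groups without overlap, although the lowest Rspo1 value of Cpn1 lay close above the higher control. For Gramd1a the differences were 3.21 (SE 0.30) for Rspo1 minus LGR5-ECD, -2.42 (SE 0.34) for LGR5-ECD minus control and 0.79 (SE 0.34) for Rspo1 minus control. For Cpn1 they were 2.86 (SE 0.32), -2.23 (SE 0.36) and 0.63 (SE 0.36).

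Dmpk and Kif12 were low under loss of function but stood at about the control level under gain of function. Dmpk was at 11.2, 7.67 and 7.35 FPKM in the Rspo1 libraries, 1.62, 1.27 and 0 FPKM in the LGR5-ECD libraries and 9.21 and 9.68 FPKM in the controls. Both controls lay inside the range of the Rspo1 libraries, and Rspo1 minus control was -0.12 (SE 0.40). Kif12 was at 7.87, 10.8 and 8.66 FPKM in the Rspo1 libraries, 1.70, 1.34 and 0 FPKM in the LGR5-ECD libraries and 6.05 and 9.75 FPKM in the controls. The Rspo1 and control libraries overlapped here too, and the difference of 0.21 (SE 0.41) turned to -0.10 without control 1. LGR5-ECD minus control was -2.53 (SE 0.40) for Dmpk and -2.23 (SE 0.41) for Kif12, and Rspo1 minus LGR5-ECD was 2.41 (SE 0.36) and 2.44 (SE 0.37). The values of Dmpk and Kif12 thus go against a common label of genes graded over all 3 groups. For Cpn1 the step above the control was less than 2 times its SE.

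**Figure D1:**
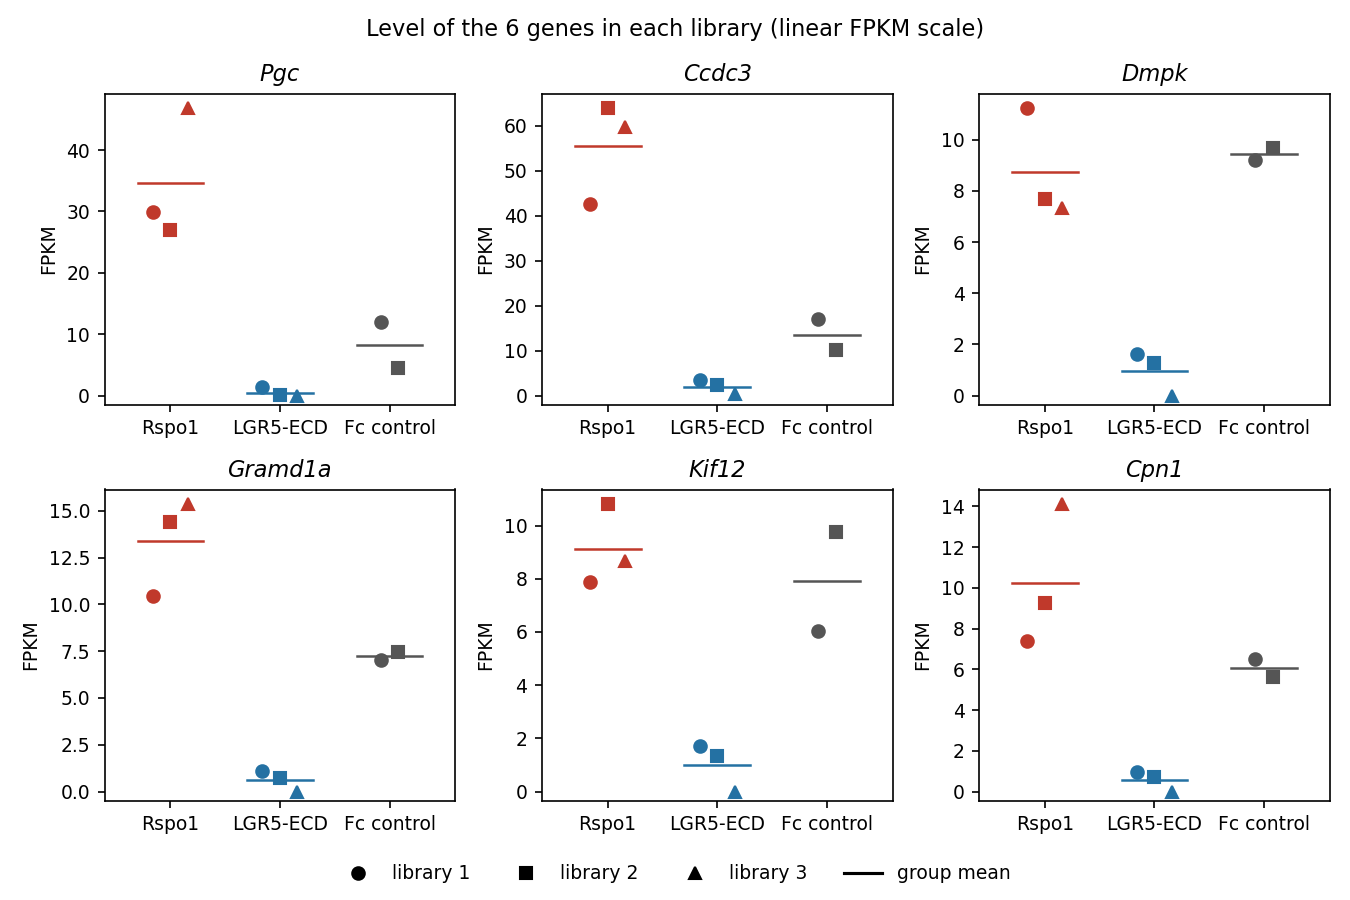
FPKM (vertical axes, linear, each gene with its own scale) of the 6 genes in the 3 Rspo1, 3 LGR5-ECD and 2 Fc control libraries, with marker shape for the library number and a line at the group mean. The LGR5-ECD libraries are lowest in every panel, and the Rspo1 and control libraries overlap for Dmpk (7.35 to 11.2 against 9.21 and 9.68 FPKM) and Kif12 (7.87 to 10.8 against 6.05 and 9.75 FPKM).

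In all 6 genes every Rspo1 library was above every LGR5-ECD library, as in 18.9% of all genes tested. All 6 also had every LGR5-ECD library below both controls, as in 12.7% of genes, and 4 of 6 had every Rspo1 library above both controls, as in 26.2%. The full order of Rspo1 above control above LGR5-ECD without overlap held for 4 of 6, and for 2.26% of genes. The choice of the genes used these contrasts, so nothing is read from their share. By size of the fall in LGR5-ECD against control the 6 genes ranked from 7 (Pgc) to 21 (Cpn1) among the 11454 genes. For the rise in Rspo1 against control they spread from rank 58 (Pgc) and 62 (Ccdc3) through 933 (Gramd1a), 1607 (Cpn1) and 5197 (Kif12) to 8310 (Dmpk).

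LGR5-ECD minus control ran from -2.63 to -2.23 over the 6 genes, which were chosen for a large fall. That narrow band belongs to the scale with a pseudocount of 1, and with 0.1 the falls ran from -4.61 (Pgc) to -3.09 (Ccdc3). Rspo1 minus control ran from -0.12 to 2.03. On the log2 scale the control mean lay 54.8% of the way up from LGR5-ECD to Rspo1 for Ccdc3, 56.5% for Pgc, 75.5% for Gramd1a, 78% for Cpn1, 91.6% for Kif12 and 105% for Dmpk. The 2 control libraries enter both of these differences, so an error in them moves both. As ratios of mean FPKM, Rspo1 over control was 4.18 for Pgc, 4.09 for Ccdc3, 1.85 for Gramd1a, 1.69 for Cpn1, 1.15 for Kif12 and 0.927 for Dmpk.

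**Figure D2:**
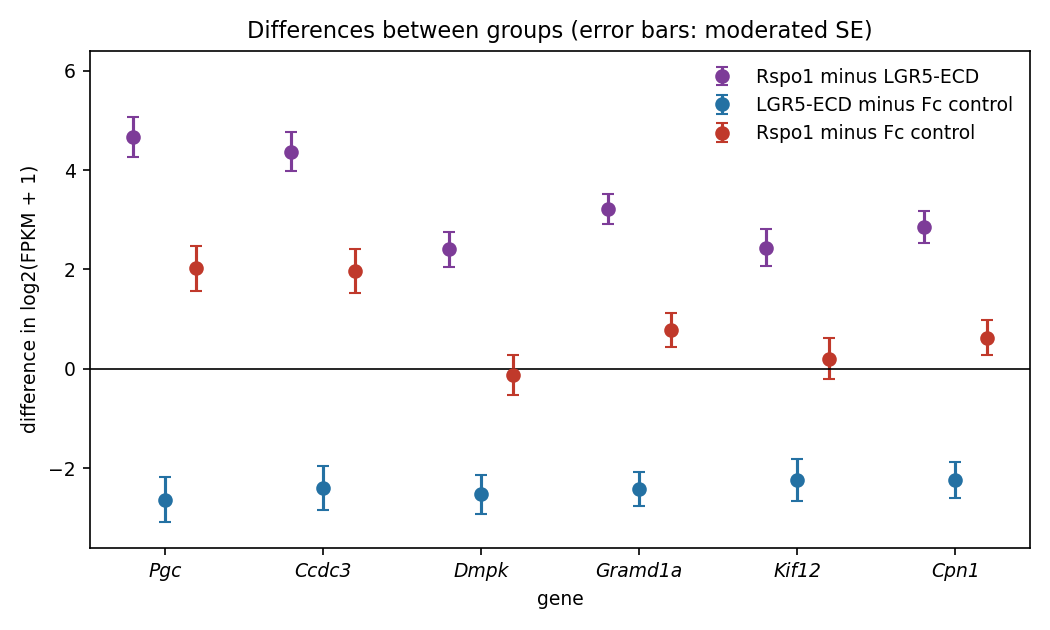
Differences between group means in log2(FPKM + 1) for the 6 genes (horizontal axis), with the moderated SE as error bars, for Rspo1 minus LGR5-ECD, LGR5-ECD minus Fc control and Rspo1 minus Fc control. On this scale LGR5-ECD minus control lies between -2.63 and -2.23, against -4.61 to -3.09 with a pseudocount of 0.1, and Rspo1 minus control lies between -0.12 (Dmpk) and 2.03 (Pgc).

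The third LGR5-ECD library listed 5 of the 6 genes at 0. Zeros were common at this level in that library, where 21.2% of 2486 genes with a mean of 0.5 to 2.5 FPKM in the other LGR5-ECD libraries were at 0, against 1.75% and 0.793% for the first and second LGR5-ECD libraries set against the others in the same way. None of 15 housekeeping genes was at 0 in any library. These genes were not matched to the range of 0.5 to 2.5 FPKM, so this says nothing of zeros at that level. Without the third library, LGR5-ECD minus control was -2.41 for Pgc, -1.89 for Ccdc3, -2.10 for Dmpk, -2.11 for Gramd1a, -1.79 for Kif12 and -1.94 for Cpn1. The mean of the first and second LGR5-ECD libraries was 0.0865 times the control mean for Pgc, 0.127 for Gramd1a, 0.14 for Cpn1, 0.153 for Dmpk, 0.193 for Kif12 and 0.209 for Ccdc3. The fall was thus seen in each LGR5-ECD library, but its size on the log2 scale leans on how the zeros are treated. With a pseudocount of 0.1 in place of 1, Rspo1 minus LGR5-ECD was 6.78 for Pgc and 3.82 for Dmpk.

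The 2 control libraries differed from each other more for Pgc and Ccdc3 than for Dmpk, Gramd1a and Cpn1. Control 1 was above control 2 by a ratio of 2.63 for Pgc and 1.69 for Ccdc3. The stem cell genes went the same way, with 40.6 FPKM in control 1 and 22.0 FPKM in control 2 for Lgr5, 770.6 and 292.4 FPKM for the secreted stem cell marker Olfm4, 28.9 and 11.0 FPKM for Ascl2 and 90.4 and 39.3 FPKM for Axin2. Dmpk and Gramd1a differed little between the controls (ratios 0.952 and 0.943), Cpn1 had a ratio of 1.16 and Kif12 went the other way (0.621). With 2 control libraries these ratios carry no test. All 6 genes were higher in the first LGR5-ECD library than in the second, as were Lgr5 (8.31 and 2.84 FPKM) and Olfm4 (250.7 and 53.6 FPKM). The crypt base markers Gkn3 (0.387 and 1.74 FPKM) and Phlda1 (0.458 and 0.716 FPKM) went the other way. How many of all genes tested were higher in the first library was not counted. Within the Rspo1 group the highest library was 1.37 (Kif12) to 1.91 (Cpn1) times the lowest, with Pgc (1.73) and Ccdc3 (1.5) inside that range.

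As a measure of likeness between genes, the log2(FPKM + 1) values of a gene were centred on their mean over the 8 libraries, and the root mean square distance between profiles was taken. This distance is set largely by the group differences that chose the genes, so it describes them again. Pgc and Ccdc3 lay 0.42 apart. Dmpk, Gramd1a, Kif12 and Cpn1 lay 0.21 (Gramd1a and Cpn1) to 0.51 (Dmpk and Gramd1a) from each other, and 0.62 to 1.19 from Pgc or Ccdc3. Among 7202 other genes reaching a group mean of 5 FPKM, the closest to Pgc were Lgr5 (distance 0.36), the urea transporter gene Slc14a1 (0.51) and Olfm4 (0.53). With a pseudocount of 0.1 none of these 3 remained, and the closest to Pgc were Fstl1, Slc1a2 and Atoh8. Closest to Ccdc3 were the beta-tubulin gene Tubb2b (0.46), Phlda1 (0.46) and Lgr5 (0.47).

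Markers from the crypt base stem cell list were not among the 3 nearest profiles of the other 4 genes on this scale, but some were under alternatives. Dmpk was closest to Cttnbp2, whose product binds cortactin (0.31), the receptor phosphatase gene Ptprs (0.41) and Atoh8, which encodes a basic helix-loop-helix factor (0.46). Gramd1a was closest to Tead2, which encodes a DNA-binding partner of YAP (0.30), Fam222a (0.38) and Atoh8 (0.40). Kif12 was closest to Ptprs (0.32), Cttnbp2 (0.35) and Tead2 (0.35), and Cpn1 to Tead2 (0.23), Atoh8 (0.27) and Ctxn1 (0.34). Tead2 was thus among the 3 nearest of 3 of these genes, at 8.93, 9.80 and 13.1 FPKM in the Rspo1 libraries, 2.05, 0.695 and 0.154 FPKM in the LGR5-ECD libraries and 5.69 and 6.23 FPKM in the controls. Each of these 11 neighbouring profiles rose in Rspo1 against LGR5-ECD, with adjusted p from 0.000113 (Lgr5) to 0.011 (Cttnbp2), and likeness to genes chosen for that difference leads to such calls. The call for Cttnbp2 was lost with a pseudocount of 0.1 and with no filter (highest adjusted p = 0.0783). With a pseudocount of 0.1 the stem cell gene Ascl2 was among the 3 nearest of Dmpk, Gramd1a and Cpn1. Without control 2 the Wnt and stem cell genes Ephb3 (Gramd1a and Cpn1), Tnfrsf19 (Gramd1a) and Tcf7 (Dmpk) were. The nearest genes of Dmpk and Kif12 depended on the third LGR5-ECD library, and without it 0 of the 3 were shared for either.

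**Figure D3:**
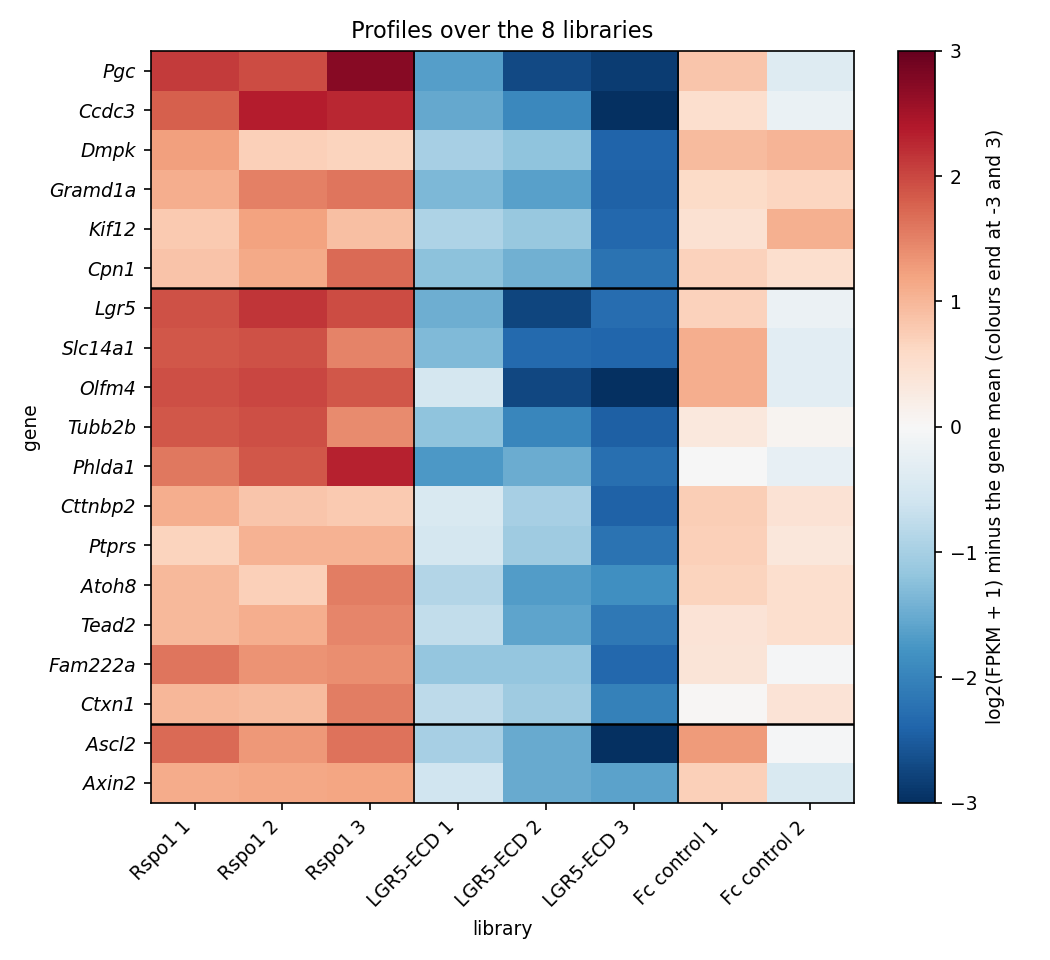
Centred log2(FPKM + 1) profiles over the 8 libraries (columns) for the 6 genes (top block), the genes closest to them (middle block) and Ascl2 and Axin2 (bottom block), with red above and blue below the gene's own mean. Control 2 is below control 1 for Pgc, Ccdc3, Lgr5, Olfm4, Ascl2 and Axin2, while Dmpk, Gramd1a and Kif12 are as high or higher in control 2.

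Relatives and pathway partners of the 6 genes were listed by family, with earlier results of these data known, so their counts are not independent. Of 138 such genes in 8 lists, 70 passed the filter. In Rspo1 against LGR5-ECD 5 of the 70 rose and 4 fell, while 4.92% of all genes tested rose and 3.54% fell, so the lists' counts were near the share over all genes. Their median log2 change was 0.04, against 0.08 over all genes. In LGR5-ECD against control 1 rose and 0 fell (0.445% and 0.271% of all genes). At an unadjusted p under 0.05 in limma, 11 of the 70 were up and 5 down, with 1184 and 752 among all 11454 genes. In Rspo1 against control 1 rose and 1 fell (0.672% and 0.576% of all genes). Unadjusted, 13 of the 70 were up and 7 down there, with 1372 and 583 among all genes.

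For Pgc, most other stomach genes were near 0. Among the 24 stomach gland and pit genes measured, 5 passed the filter, 16 were under 1 FPKM in every library and 9 were at 0 in every library. Pga5, the other pepsinogen gene, was at 0 throughout, the gland mucin gene Muc6 was at most 0.4 FPKM, and the proton pump gene Atp4a was at most 0.671 FPKM. In Rspo1 against LGR5-ECD 2 of the 5 rose and 0 fell. The highest of the 24 was Ghrl, which stood at 7.07 and 144.2 FPKM in the controls and did not follow Pgc. It was at 1.65, 5.83 and 0.892 FPKM in the Rspo1 libraries and 1.81, 2.66 and 0 FPKM in the LGR5-ECD libraries. Its adjusted p was 0.761 for Rspo1 against LGR5-ECD. Sst reached 19.8 FPKM (adjusted p = 0.912) and Muc1 2.18 FPKM (adjusted p = 0.145). Gkn3, a gastrokine gene that is also a crypt base marker of the mouse intestine, was at 63.6, 92.3 and 112.4 FPKM in the Rspo1 libraries, 0.387, 1.74 and 11.2 FPKM in the LGR5-ECD libraries and 30.5 and 21.5 FPKM in the controls (log2 change 4.62, SE 0.62, adjusted p = 0.00162). Bhlha15, which encodes a transcription factor of secretory cells, rose by 1.85 (SE 0.37, adjusted p = 0.0125), and this call was lost without Rspo1 replicate 2 or 3 (highest adjusted p = 0.0668). It also rose against the control (2.40, SE 0.41, adjusted p = 0.0282), a call lost without either control or any of the Rspo1 libraries.

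Among 8 aspartic protease genes other than Pgc, 4 passed the filter and 1 fell. Ctsd, the lysosomal cathepsin D gene, averaged 35.5 FPKM in Rspo1, 29.2 FPKM in LGR5-ECD and 27.7 FPKM in control cells (adjusted p = 0.372 for Rspo1 against LGR5-ECD). The one that fell, Ren1, the renin gene, was at 0.389, 0 and 0 FPKM in the Rspo1 libraries, 1.97, 2.54 and 4.70 FPKM in the LGR5-ECD libraries and 1.23 and 1.97 FPKM in the controls (-1.81, SE 0.32, adjusted p = 0.00696). Some mouse strains carry a near-identical second renin gene, so its reads are uncertain.

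Dmpk was set beside 10 kinases of its wider family, 9 of which passed the filter. Of these 0 rose and 1 fell in Rspo1 against LGR5-ECD, and the unadjusted counts were 0 and 1 too. Cdc42bpg, which encodes the related kinase MRCK gamma, averaged 6.10 FPKM in Rspo1 (SD 0.23, n = 3), 11.3 FPKM in LGR5-ECD (SD 1.52, n = 3) and 12.4 FPKM in control cells (SD 0.081, n = 2). Its log2 change of -0.79 (SE 0.19, adjusted p = 0.0309) was lost without any 1 of 5 treated libraries (highest adjusted p = 0.122). The RNA-binding proteins tied to myotonic dystrophy in humans, MBNL and CELF, had 6 of 9 genes tested. Mbnl2 rose (0.69, SE 0.17, adjusted p = 0.0343) and Celf5 fell (-1.08, SE 0.29, adjusted p = 0.0452). The Mbnl2 call was lost without any 1 of the 6 treated libraries and that of Celf5 without 5 of them (highest adjusted p = 0.128 and 0.147).

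For Gramd1a, 14 of 16 family and sterol transfer genes in the table were tested, and 1 rose and 0 fell. The one that rose was Soat1, which encodes the enzyme that esterifies cholesterol for storage and is itself a crypt base marker. It was at 47.5, 45.1 and 42.7 FPKM in the Rspo1 libraries, 7.26, 2.64 and 3.95 FPKM in the LGR5-ECD libraries and 23.2 and 12.3 FPKM in the controls (3.12, SE 0.31, adjusted p = 0.00034). No such difference was called in Gramd1b, a close paralog of Gramd1a. Gramd1b averaged 1.49 FPKM in Rspo1, 2.84 FPKM in LGR5-ECD and 3.02 FPKM in control cells (-0.62, SE 0.25, adjusted p = 0.167). Gramd1c, another close paralog, was not tested, as it was below 1 FPKM in every library but the third LGR5-ECD library (1.64 FPKM).

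For Kif12, the other kinesins were read. Of 40 kinesins measured, 28 passed the filter. In Rspo1 against LGR5-ECD 1 rose and 0 fell, near the 4.92% and 3.54% over all genes. At an unadjusted p under 0.05 in limma, 2 were up and 1 down, with 1595 and 1023 among all 11454 genes. Kif26b, which encodes an atypical kinesin, was at 2.48, 5.08 and 5.46 FPKM in the Rspo1 libraries, 0.152, 0.344 and 0.845 FPKM in the LGR5-ECD libraries and 1.81 and 0.865 FPKM in the controls (1.86, SE 0.33, adjusted p = 0.00765). The list median was -0.20, against 0.08 over all genes. Mitotic kinesin genes such as Kif11, at a mean of 13.0 FPKM in Rspo1, 17.4 FPKM in LGR5-ECD and 8.51 FPKM in control cells (adjusted p = 0.339 for Rspo1 against LGR5-ECD), and Kif23 (adjusted p = 0.227) did not pass.

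The partner of Cpn1 was close to 0. Cpn2, the gene of the regulatory subunit that carries CPN1 in plasma, was at 0, 0.0376 and 0 FPKM in the Rspo1 libraries, 0.0945, 0.31 and 0 FPKM in the LGR5-ECD libraries and 0 in both controls. Of 16 other carboxypeptidase genes of the M14 family in the table only Cpd and Cpm were tested, and 0 of 2 passed (0 at an unadjusted p under 0.05 in limma for Rspo1 against LGR5-ECD). Cpd averaged 7.89 FPKM in Rspo1, 9.69 FPKM in LGR5-ECD and 4.16 FPKM in control cells (adjusted p = 0.673 for Rspo1 against LGR5-ECD), while Cpm averaged 5.06 FPKM in Rspo1, 3.24 FPKM in LGR5-ECD and 6.84 FPKM in control cells (adjusted p = 0.246). Of 12 kinin and anaphylatoxin genes 2 were tested. Ace, a kinin-degrading enzyme of the brush border and an enterocyte marker, moved the other way from Cpn1, at 9.30, 9.88 and 9.48 FPKM in the Rspo1 libraries, 48.1, 48.3 and 40.6 FPKM in the LGR5-ECD libraries and 24.6 and 19.0 FPKM in the controls. Its log2 change was -2.14 (SE 0.18, adjusted p = 0.000166) in Rspo1 against LGR5-ECD, and the changes against the control (1.04 for LGR5-ECD, adjusted p = 0.0492, and -1.10 for Rspo1, adjusted p = 0.0314) were lost without single libraries of every group.

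**Figure D4:**
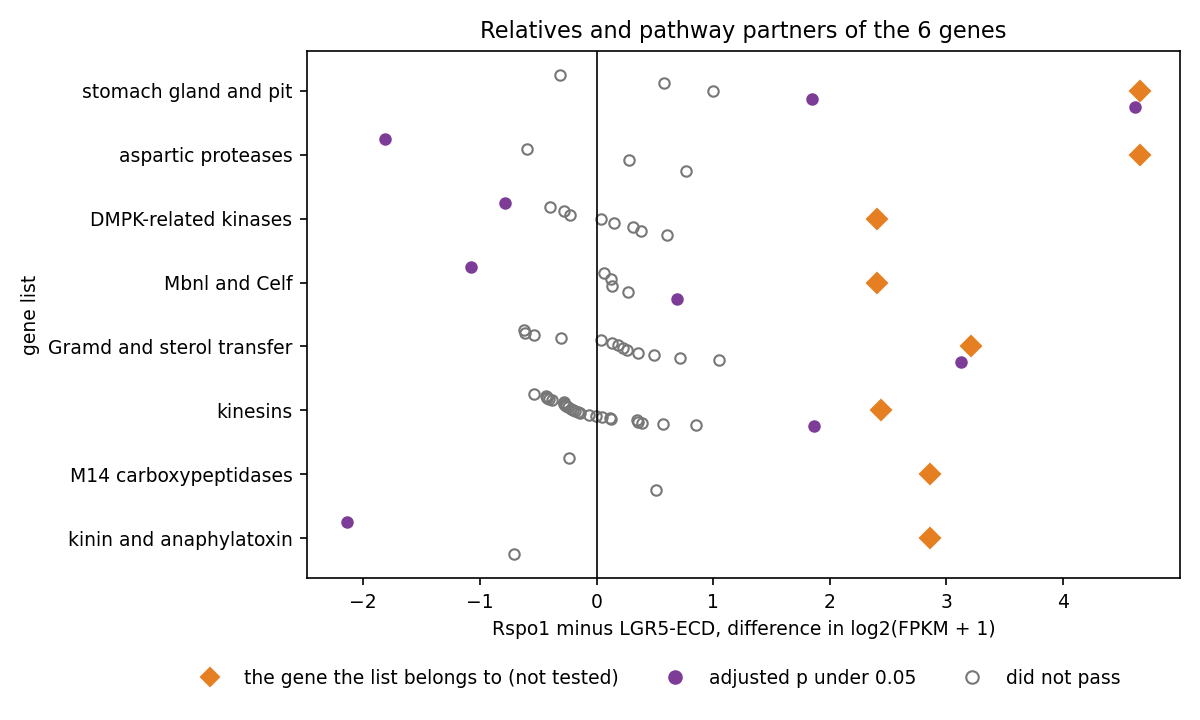
Rspo1 minus LGR5-ECD in log2(FPKM + 1) (horizontal axis) for tested genes of 8 lists (rows), filled where adjusted p was under 0.05 and open where not, with the gene each list belongs to as a diamond. Beside the diamonds, Gkn3 (4.62) and Soat1 (3.12) lie farthest to the right and Ace (-2.14) farthest to the left.

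Genes next to the 6 in the genome, by order in the RefSeq annotation, were read as well. Dmwd, next to Dmpk on chromosome 7, was at 3.21, 4.45 and 4.69 FPKM in the Rspo1 libraries, 0.767, 0.0685 and 0.609 FPKM in the LGR5-ECD libraries and 3.74 and 1.01 FPKM in the controls. It rose in Rspo1 against LGR5-ECD (1.81, SE 0.36, adjusted p = 0.0121), a call lost without Rspo1 replicate 2 or 3 (highest adjusted p = 0.0605). Six5, on the other side of Dmpk, was at 1.36, 1.55 and 1.47 FPKM in the Rspo1 libraries. It was lower in the LGR5-ECD libraries (0.693, 0.493 and 0.214 FPKM) and higher in the controls (2.39 and 1.91 FPKM). Six5 did not pass in Rspo1 against LGR5-ECD (0.76, SE 0.26, adjusted p = 0.106) or in LGR5-ECD against control (-1.11, SE 0.29, adjusted p = 0.112). Whether counting used strand is not known from the sources used here, so reads of closely packed neighbours may not be fully separated. The tested neighbours of the others were Tfeb beside Pgc, Optn and Camk1d beside Ccdc3 and Dnmbp beside Cpn1, and none passed (adjusted p 0.664, 0.183, 0.0661 and 0.496). Those of Gramd1a and Kif12 were under the filter or not in the table.

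Markers of liver, muscle, endothelium, fat and pancreas were mostly near 0, and no kidney list was read. Of 14 hepatocyte markers 10 were under 1 FPKM in every library, and the albumin gene Alb was at most 0.102 FPKM. Cps1, at up to 519.1 FPKM, carries most of the summed hepatocyte list and is also an enterocyte gene. Of 14 muscle markers 11 were under 1 FPKM throughout, and the list summed to 1.92 to 4.88 FPKM in Rspo1, 2.46 to 5.52 FPKM in LGR5-ECD and 1.34 and 3.66 FPKM in control libraries. Of 10 endothelial markers 9 were under 1 FPKM, Cdh5 and Kdr were at 0 in every library, and only Esam was tested. Esam was at most 11.1 FPKM, and it rose in Rspo1 against LGR5-ECD, so the endothelial list summed to 10.7 to 11.7 FPKM in Rspo1, 0.265 to 2.98 FPKM in LGR5-ECD and 7.36 and 3.42 FPKM in control libraries. Of 9 adipocyte markers 7 were under 1 FPKM, and Adipoq and Plin1 were at 0 in every library, while Cidec fell in Rspo1 against LGR5-ECD. The Cidec call was lost with a pseudocount of 0.1, with no filter and with a filter at 5 FPKM. Of 10 pancreatic acinar markers 8 were at 0 in every library, and Rnase1 rose in Rspo1 against LGR5-ECD (347.6 FPKM at most). The part of these genes in the results for the 6 genes was not tested.

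Cell type markers inside the gate differed between the groups too, and not all lists in the direction of the 6 genes. Summed over 22 crypt base stem cell markers, the level was 2523 to 2732 FPKM in Rspo1 and 245.4 to 597.8 FPKM in LGR5-ECD libraries. The controls summed to 1446 and 683.9 FPKM. Olfm4 alone was at 1316 to 1466 FPKM in Rspo1 and 36.2 to 250.7 FPKM in LGR5-ECD libraries. It was at 770.6 and 292.4 FPKM in the controls, so 1 gene carries a large part of this sum. Of the 22 markers 21 rose in Rspo1 against LGR5-ECD, against 4.92% of all genes tested. Summed over 20 enterocyte markers, the level was 658 to 715.5 FPKM in Rspo1 and 1655 to 1935 FPKM in LGR5-ECD libraries. It was 921.7 and 950.8 FPKM in the controls. Of these 20 markers 16 fell in Rspo1 against LGR5-ECD, against 3.54% of all genes tested. Paneth markers (12) summed to 2491 to 3756 FPKM in Rspo1, 2507 to 5320 FPKM in LGR5-ECD and 818.9 and 100.4 FPKM in control libraries. Goblet markers (10) summed to 297.3 to 753.4 FPKM in Rspo1, 833 to 2651 FPKM in LGR5-ECD and 314.8 and 936 FPKM in control libraries. In Rspo1 against LGR5-ECD 2 Paneth markers rose and 1 fell, while 0 goblet markers rose and 5 fell. With a pseudocount of 0.1 the Paneth counts were 1 and 0, and with no filter 2 goblet markers fell. The part of these shifts in the levels of the 6 genes was not tested, and in bulk samples fewer cells of a type and less RNA per cell cannot be told apart.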

How the data were processed

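The deposited table held FPKM values made by the authors for 8 libraries in 24510 rows named by symbol. The submitters' processing notes name the build mm9 and the tools Cufflinks, TopHat, HTSeq and DESeq2, with versions, roles, annotation and use of strand not given in the sources used here. No column of the table names the GFP-negative sort, and both control columns were read as GFP-positive. On that reading the GFP-negative control samples were not analysed, and the planned comparison with them was not run. Dropped were 27 rows named by a date and 391 identical repeats, and 89 symbols on differing rows were summed.

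Genes with at least 1 FPKM in at least 2 libraries were fitted as log2(FPKM + 1) with limma 3.58.1 in R 4.3.3 (group means, no covariate, eBayes with trend, 5 residual degrees of freedom). Two-sided p-values were adjusted after Benjamini and Hochberg across the 11454 genes fitted and called under 0.05. No count test fits FPKM. The fit was also run on simulated data with normal noise at the fitted spread. Those data held no library with extra zeros like the third LGR5-ECD library, so they cannot vouch for the fit there. Libraries of a group are biological replicates by the series text.

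The 6 genes, the gene lists, the motifs and the rule for named genes were chosen with earlier results of these data known. The rule took the 6 genes, the 3 nearest profiles of each and up to 3 called genes per family list and comparison. It also took chromosomal neighbours and some fixed relatives and stem cell genes. Ctsd, Kif11, Kif23, Cpd, Cpm and Gramd1c were named as examples after their values were seen. So were Muc6, Atp4a, Ghrl, Sst, Muc1 and the single markers of other tissues. Nearest profiles left out predicted genes and small non-coding RNA genes. Of the table's symbols 99.5% were found in RefSeq's gene table. Alternatives were a pseudocount of 0.1, no filter, a filter at 5 FPKM, median-ratio scaling, leaving out each library with the tested genes kept, and the replicate number as a block. Tables and figures were made in Python 3.11.15 with pandas 2.3.3, NumPy 2.4.6 and matplotlib 3.10.9.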

Additional observations from a re-analysis of the deposited data

How the results depend on the processing

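The log2 differences of the 6 genes kept their sign under every alternative run, except Kif12 in Rspo1 against control without control 1 (-0.10). They moved by more than the spread between libraries only with a pseudocount of 0.1, in the comparisons with LGR5-ECD. Counts over all genes were less stable. For Rspo1 against LGR5-ECD they were 563 higher and 405 lower, and 212 to 600 and 183 to 435 without 1 library. For LGR5-ECD against control they were 51 and 31, and 0 to 153 and 0 to 49 without 1 library. For Rspo1 against control they were 77 and 66, and 8 to 362 and 13 to 160 without 1 library. Without control 2, limma called 0 higher and 0 lower in LGR5-ECD, with 571 and 659 at an unadjusted p under 0.05. A fit without a control assumes that the lone control varies like the other groups. With a pseudocount of 0.1 the counts were 10 and 2 for LGR5-ECD and 33 and 41 for Rspo1 against control. With no filter they were 0 and 4, and 7 and 22 (unadjusted, 1266 genes were higher in LGR5-ECD in limma). Median-ratio scaling gave 120 lower genes in Rspo1 against control (40.6% of calls higher, against 53.8% as deposited) and 44 higher and 45 lower in LGR5-ECD (49.4%, against 62.2%). The median of all genes in Rspo1 against control was shifted by 0.16 as deposited and 0.01 after scaling. The cause of these changes was not tested.

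With the replicate block, Rspo1 against LGR5-ECD had 319 higher and 267 lower genes, against 598 and 435 with the same 6 libraries and no block, a fit added after the data were seen. Deviations from the group means had correlations across genes of -0.0188, -0.0225 and -0.0477 between libraries of the same number. With so few libraries per group, such values cannot decide whether libraries of the same number were handled together. All 3 nearest profiles were kept in 6 of 10 alternatives for Pgc and Kif12, 5 for Ccdc3, 3 for Cpn1, 2 for Gramd1a and 1 for Dmpk. Motif counts were the same in the 250 bases before the start. FPKM hold no read counts, so the counting error of values near 0 could not be estimated.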
